A study of Mus musculus with 11 samples.

Results

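The V and J gene segments of the T cell receptor alpha chain were examined in RNA of liver CD4 T cells from mice given carbon tetrachloride. The set holds every gene in the deposited table whose GENCODE M21 (GRCm38) symbol starts with Trav or Traj, chosen by name and not by any measured value. These are 188 of 56748 genes, of which 128 are Trav (108 annotated as functional and 20 as pseudogenes) and 60 are Traj (51 and 9). All lie on the plus strand of chromosome 14, the Trav genes at chr14:52427928-53977678 and the Traj genes at chr14:54155005-54218842, between the V genes and the constant gene Trac.

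A T cell in the thymus joins 1 Trav to 1 Traj segment by cutting out the DNA between them, and splicing then connects the joined exon to Trac. A cell can rearrange the same allele again with a V further upstream and a J further downstream, so J segments near Trac are reached by later joins. Most alpha beta T cells differ in the segments they carry, and a clone that divides passes its segments to all its daughters. Invariant natural killer T cells are known for a chain of Trav11 with Traj18, and mucosal-associated invariant T cells for a chain of Trav1 with Traj33.

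The 6 libraries called Atg5-deficient carry the label ATG5TLymph-/-, a loss in T lymphocytes of Atg5, a protein needed to form autophagosomes. The 5 libraries called wild-type came from mice with the floxed, undeleted gene (ATG5fl/fl). All mice were injected with CCl4, a solvent that injures hepatocytes and leads to fibrosis, for 5 weeks. The series describes sorted CD4 T cells of the liver, whereas the labels' protocol speaks of RNA from FFPE sections (fixed tissue in paraffin) and of stranded libraries of total RNA. The driver of the deletion, the age and sex of the mice, any pooling and whether libraries came from separate mice are not stated, and p-values cover only the spread seen among these libraries, which may be technical.

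Library totals ran from 30699408 to 47564440 counts, of which 4354 to 8070 fell on Trav and 3592 to 12319 on Traj segments. A count of 0 in a library therefore allowed a share of up to 0.0372% to 0.0689% of the Trav and 0.0244% to 0.0835% of the Traj counts (3 counts of the total), and these limits cover counting error only. Markers of CD4 T cells summed to 2767 to 4139 CPM (gene counts scaled to the library's size) over all libraries, those of CD8 T cells to 4.1 to 6.55, of hepatocytes to 29.5 to 759, and of B cells to 142 to 272. Of the 4 thymocyte markers, which serve recombination and the pre-T cell receptor, Rag2 and Ptcra were at 0 in all libraries and Rag1 had 25 counts in all, whereas Dntt was at 0.688 to 5.46 CPM. Together they summed to 0.703 to 4.11 CPM in the Atg5-deficient and 1.98 to 5.76 CPM in the wild-type libraries. Atg5 was at 15.2 to 22.5 CPM in the Atg5-deficient and 13.4 to 21 in the wild-type libraries (log2 fold change 0.18, SE 0.14, edgeR adjusted p = 0.488), and a count over the whole gene does not check a deletion of single exons. In bulk RNA, fewer cells with a segment and less RNA per cell cannot be told apart.

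The J segments that the results turn on are shown from the GENCODE M21 transcripts, 5′ to 3′, with capitals at the motif TTNGG, any 4 bases and GGN, the bases that encode the Phe-Gly-X-Gly turn of a J region. Traj6, Traj9 and Traj18 had the largest shares, Traj39 and Traj37 stood out in 1 Atg5-deficient library each and Traj23 in 2, Traj33 is the J of the mucosal-associated invariant chain, and Traj14 is the most counted J pseudogene.
Traj6: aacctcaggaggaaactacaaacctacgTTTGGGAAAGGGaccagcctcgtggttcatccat
Traj9: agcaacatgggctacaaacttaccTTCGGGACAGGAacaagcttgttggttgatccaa
Traj18: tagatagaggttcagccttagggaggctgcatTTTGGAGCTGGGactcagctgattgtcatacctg
Traj23: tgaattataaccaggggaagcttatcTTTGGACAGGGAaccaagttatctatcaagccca
Traj37: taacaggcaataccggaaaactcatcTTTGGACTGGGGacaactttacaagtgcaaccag
Traj39: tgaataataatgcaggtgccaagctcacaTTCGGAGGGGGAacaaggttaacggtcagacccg
Traj33: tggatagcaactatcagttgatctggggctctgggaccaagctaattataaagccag
Traj14: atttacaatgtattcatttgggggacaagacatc
Traj18 lies at chr14:54200777-54200842, Traj33 at chr14:54185358-54185414 and Traj6 at chr14:54212688-54212749. The motif was found on the plus strand in 44 of 51 functional J segments (86.3%) and in 2 of 9 J pseudogenes (22.2%), against 2.54% of the first 60 bases of all other transcripts on both strands. Traj33 and Traj14 are without a match to these letters.

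The V segments are hard to count singly, because much of the Trav cluster exists in up to 3 copies, named with d, with n, or with neither. The last 60 annotated bases, a part of each segment, are shown as an example of how alike copies are, for Trav4-3, the only segment that passed the test below, and for Trav7-6 and Trav7-3 with the copies that stood out in single libraries, with capitals where a copy differs from the segment printed above it. Trav11 is shown without its last annotated base, where Trav11d ends.
Trav4-3: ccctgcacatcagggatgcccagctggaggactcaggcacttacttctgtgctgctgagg
Trav4n-3: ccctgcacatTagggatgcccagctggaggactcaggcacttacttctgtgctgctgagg
Trav7-6: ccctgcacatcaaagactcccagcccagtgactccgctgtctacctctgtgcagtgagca
Trav7n-6: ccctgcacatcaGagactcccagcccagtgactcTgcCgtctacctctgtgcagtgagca
Trav7-3: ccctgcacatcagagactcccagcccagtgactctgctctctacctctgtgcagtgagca
Trav7d-3: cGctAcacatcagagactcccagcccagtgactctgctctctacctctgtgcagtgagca
Trav11: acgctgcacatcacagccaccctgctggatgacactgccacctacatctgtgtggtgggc
In this window Trav4n-3 differed from Trav4-3 at 1 base, Trav7n-6 from Trav7-6 at 3 and Trav7d-3 from Trav7-3 at 2. Over the whole length only the longest run of identical bases was taken, which does not measure how alike the copies are in all. The longest shared run was 70 bases for Trav4-3 (411 bases) and Trav4n-3 (331). It was 158 of 381 for Trav7-6 and Trav7n-6, and 287 of 402 for Trav7-3 and Trav7d-3. Trav11d shares a run of 342 bases with the 343 of Trav11. Trav11n is identical in the window shown, but its longest run shared with Trav11 was 77 of 343 bases. Of the 128 Trav genes, 39 held no stretch of 50 bases that was unique among the Trav genes, and their median count was 1.45 a library against 44.4 for the others. Other transcripts were not searched for these stretches. Counts of single copies are therefore uncertain where the counting could split or drop reads, and this holds for Trav11 and Trav11d, which have 0% unique stretches. Unique stretches made up 76% of Trav4-3, 56.9% of Trav7-6, 56.6% of Trav7n-6 and 30.9% of Trav7d-3, against 0% of Trav4n-3. They made up 78.6% of Trav11n.

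Every functional segment had a count in at least 1 library. The 7 segments with 0 counts in all libraries were pseudogenes, 77 Trav and 58 Traj had a count in each of the 11 libraries, and 78 Trav and 57 Traj reached a mean of 10 counts. Trav7-4 held the largest mean share of Trav counts (5.94%), followed by Trav4-4-dv10 (4.29%), Trav10 (4%) and Trav14n-3 (3.24%). Together the 12 largest held 39.7% of Trav counts. As CPM per kilobase of exon, Trav7-4 was at 22.2, Trav4-4-dv10 at 20, Trav10 at 16.9, Trav13-1 at 15.7 and Trav14n-3 at 15.3, so Trav13-1 (3.09% of Trav counts) came before Trav14n-3 on a scale of length.

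Trav7-4 took 4.34% to 8.34% of Trav counts in the Atg5-deficient libraries (median 5.87%), and 6.58%, 4.11%, 6.26%, 5.93% and 6.28% in wild-type 1 to 5. These ranges overlap, and wild-type 2 was lowest. Trav10 took 3.21% to 7.01% (median 4.16%) in the Atg5-deficient and 3.96%, 3.08%, 2.94%, 3.49% and 3.69% in the wild-type libraries, with Atg5-deficient 5 highest. Families 7 and 14 were the largest, at 16.9% and 14.5% of Trav counts. The copies named without d or n held 72.8%, those with n 16.6% and those with d 10.6%, and the segments shared with the delta chain (dv in the name) 13.9%. Trav pseudogenes held 1.53%, led by Trav8-2 (0.694%).

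J shares were low far from Trac and high in the part of the cluster near it. They are shares of counts and not of joined segments. The part of nuclear or unspliced RNA in them was not tested, and this holds for Traj18 and Traj33 below too. The 12 segments farthest from Trac, Traj61 to Traj50, held 2.48% to 4.66% of Traj counts in the Atg5-deficient libraries (median 3.98%) and 3.25%, 5.73%, 2.84%, 2.9% and 3.58% in the wild-type libraries. The 12 nearest, Traj13 to Traj1, held 30.3% to 37.4% (median 32.9%) and 33.1%, 33.3%, 35.7%, 34.9% and 33.6%. Traj25 to Traj14, the 12 before them, held 31.4% to 37% (median 33.5%) and 37.4%, 33.7%, 35.8%, 35.3% and 35.7%. They held more than the nearest 12 in all 5 wild-type libraries and in Atg5-deficient 4 and 5. In Atg5-deficient 1, 2, 3 and 6 the nearest 12 held more, so their order differed between libraries. Over the 60 J segments, the mean count and the order from the far end gave a Spearman rho of 0.71, a description across neighbouring segments of the same libraries. The gradient was stepped and not smooth, as the plot of J shares by distance to Trac shows, since Traj5 (0.364%) and Traj8 (0.341%) sat beside Traj6 (7.62%) and Traj9 (6.28%).

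**Figure D1:**
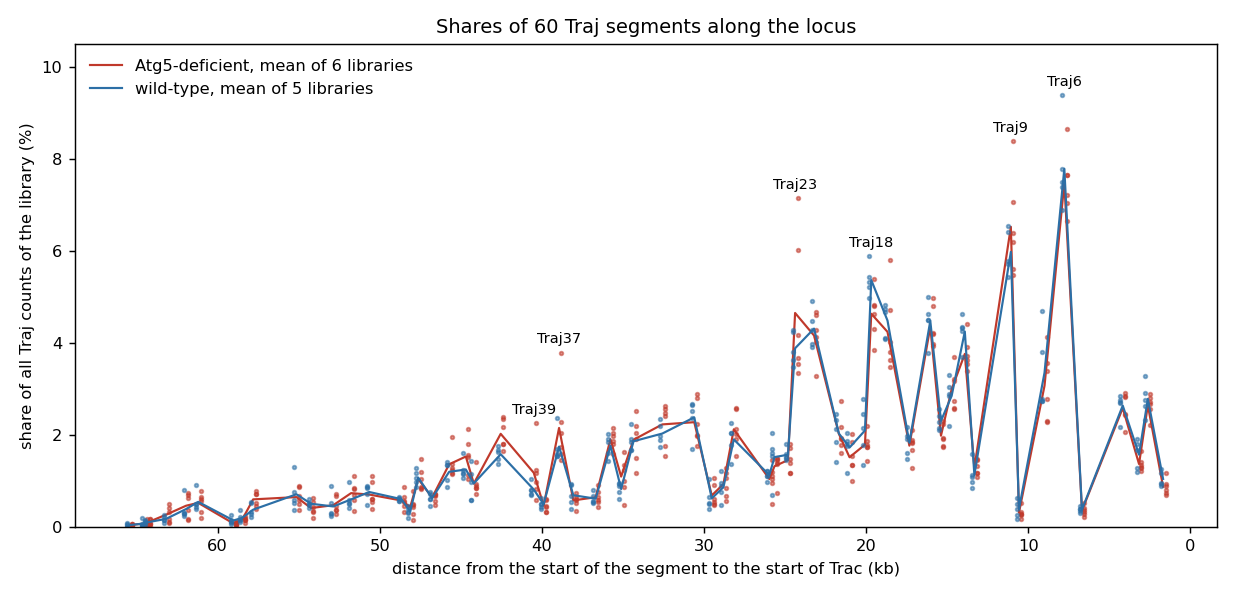
The share of all Traj counts (y axis, %) is plotted for each of 60 Traj segments against the distance in kb from its end to the start of Trac (x axis). The axis label names the start of the segment, but its end was used. Points are libraries, and lines are the mean of 6 Atg5-deficient (red) and 5 wild-type (blue) libraries. Both lines are low far from Trac and have their highest peaks at Traj6 and Traj9, and 1 red point each at Traj37 and Traj39 and 2 at Traj23 stand above the rest of their segment.

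Traj6 took 6.66% to 8.66% of Traj counts in the Atg5-deficient libraries (median 7.43%) and 7.39%, 6.88%, 9.39%, 7.78% and 7.49% in the wild-type libraries, and it was the most counted J segment on average. As CPM per kilobase of exon, Traj6 was at 316, Traj9 at 280 and Traj18 at 195. Levels of V and J segments are not compared on that scale, because J segments are short and the read length is not given. J pseudogenes held 4.88% of Traj counts and 7 of 9 reached a mean of 10 counts. Traj14 held 2.13%, Traj1 0.948% and Traj36 0.625%.

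Genotype was tested for each segment within the fit of all genes (edgeR quasi-likelihood test, Benjamini-Hochberg adjustment over 17987 genes, threshold 0.05). Of the 134 segments that passed the filter on low counts (78 Trav and 56 Traj), 1 was called, against 6.84% of all genes tested, and 5 had an unadjusted p under 0.05. With DESeq2 1 segment was called, against 13.0% of all genes, and with limma-voom (with sample quality weights) 2, against 18.8%. The share of segments called was thus below that of all genes under each tool. Segments and all genes were not matched for counts or spread, so the lower share is not read as a smaller difference between the genotypes. The median log2 fold change was 0.16 over the Trav segments (53 of 78 above 0) and -0.13 over the Traj segments (16 of 56 above 0), with 0 over all genes. The Traj median turned to 0.08 in the 8 libraries whose names carry adjoining numbers (Atg5-deficient 1 to 5 and wild-type 2 to 4), and the Trav median to -0.02 when libraries were scaled to summed Trav counts.

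The called segment was Trav4-3 (chr14:53598828-53599410), a V gene of family 4. It was at 3.1, 5.38, 4.71, 5, 4.76 and 5.35 CPM in Atg5-deficient 1 to 6, and at 2.35, 2.35, 2.71, 3.16 and 3.41 in wild-type 1 to 5. All but Atg5-deficient 1 lay above all wild-type libraries. The log2 fold change was 0.75 (SE 0.20, edgeR adjusted p = 0.04), and as a share of Trav counts Trav4-3 ran from 1.86% to 3.2% (median 2.73%) against 1.49% to 1.98% (median 1.86%). With each library left out in turn the call held in 2 of 11 fits (without Atg5-deficient 1 or without Atg5-deficient 3), and the adjusted p over these fits ran from 0.0298 to 0.0932. Trav1 (1.64, SE 0.53, adjusted p = 0.0775), Trav9n-3 (1.51, SE 0.61, 0.149), Trav10 (0.58, SE 0.24, 0.15) and Trav11 (-1.43, SE 0.60, 0.167) had log2 fold changes with an unadjusted p under 0.05 and did not pass after adjustment. Trav1 passed under limma-voom (adjusted p = 0.0477), in edgeR without the low-count filter (0.0247) and without Atg5-deficient 3 (0.042). Without Atg5-deficient 5, the library with the most counts on both, the log2 fold change of Trav1 was 0.86 (adjusted p = 0.186) and that of Trav10 0.35 (0.291).

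Shares within a class remove the summed level of that class in each library, but not the larger counting error at low totals. No segment with a mean count of at least 10 had shares that did not overlap between the groups, 0 of 78 Trav and 0 of 57 Traj. Over all genes tested, 6.97% did not overlap when counts were taken relative to summed Trav counts, and 0.678% when taken relative to summed Traj counts. For whole profiles, the test used cannot decide whether the genotypes separate. It set the mean Bray-Curtis distance between the groups, which is 0 for equal and 1 for disjoint profiles, against the mean within them. For Trav shares these were 0.203 and 0.208 (exact permutation test over 462 splits, one-sided p = 0.82). For Traj shares they were 0.106 and 0.107 (exact permutation test, one-sided p = 0.53). The mean within the groups pools 15 Atg5-deficient pairs (Trav mean 0.245) with 10 wild-type pairs (0.152), so the wider group weighs more. The Trav difference, -0.00473 in all libraries, was 0.00305 to 0.00663 without any 1 Atg5-deficient library. Without any 1 wild-type library it was -0.018 to -0.0144.

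The Atg5-deficient libraries differed from each other in their V shares more than the wild-type libraries did. The distance of Trav shares was 0.195 to 0.301 over the 15 pairs of Atg5-deficient libraries (mean 0.245) and 0.126 to 0.177 over the 10 pairs of wild-type libraries (mean 0.152). All 15 Atg5-deficient pairs were farther apart than any wild-type pair. The difference of the means was 0.0933 (exact permutation test, two-sided p = 0.00433, 0.026 after adjustment over 6 values of this kind), a comparison chosen after the distances were seen. By the same exact permutation test it was 0.0948 in the 8 adjoining libraries alone (p = 0.0357), 0.0933 with all libraries thinned to equal Trav counts (p = 0.00433), 0.107 without segments that have a near-identical copy (p = 0.00433), and 0.0759 to 0.102 when each library was left out in turn. For Traj shares the distances were 0.0865 to 0.17 (mean 0.117) and 0.0527 to 0.117 (mean 0.0918), with p = 0.104 by the exact permutation test (0.176 adjusted). Without wild-type 2 their difference went from 0.025 to 0.0406 (exact permutation p = 0.00476, not adjusted), so this call rests on that library. Whether V and J distances differ in this respect was not tested.

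**Figure D2:**
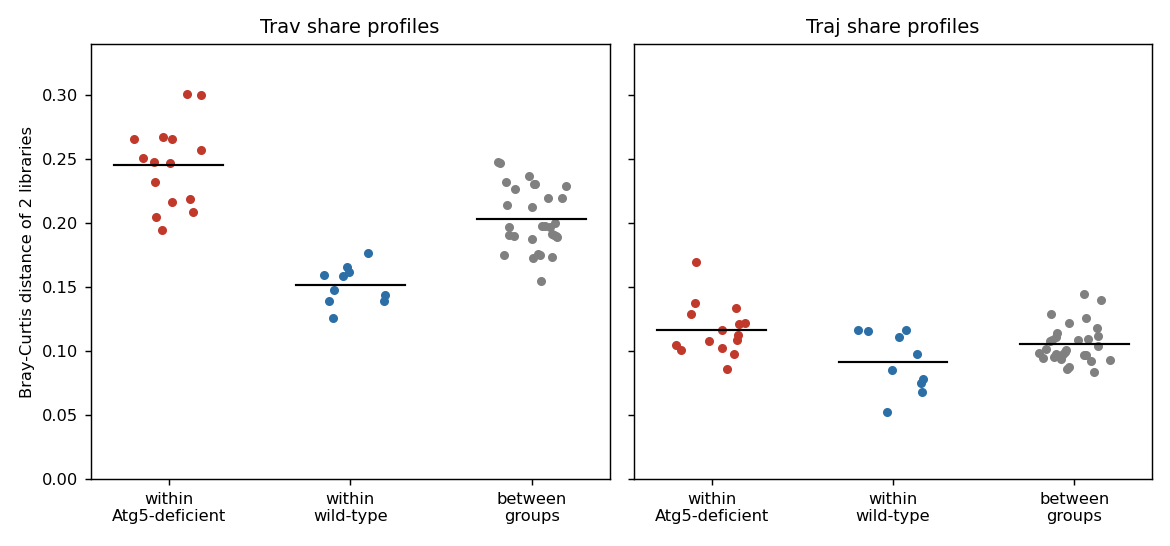
Each point is the Bray-Curtis distance (y axis, no unit) between the share profiles of 2 libraries, for Trav segments at left and Traj segments at right, split into pairs within the Atg5-deficient group (red, 15), within the wild-type group (blue, 10) and between groups (grey, 30), with a line at the mean. For Trav, all red points lie above all blue points, and for Traj they overlap.

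Single libraries held V segments at shares far above those of the other libraries. With a raised segment defined as 1 whose share was at least 3 times the median of the other 10 libraries, with at least 20 counts in the library and a mean of at least 10, the Atg5-deficient libraries held 3, 1, 4, 3, 2 and 3 raised Trav segments and the wild-type libraries 1, 2, 1, 2 and 0. The means of 2.67 and 1.2 differed with an exact permutation p = 0.0649 (0.176 adjusted), and the definition was set after the data were seen. With a limit of 2 times in place of 3, the difference of the means was 3.4 (exact permutation p = 0.0216, not adjusted). With a limit of 4 times it was 0.567 (exact permutation p = 0.297), so the result depends on the limit. No Traj segment was raised in any library by the limit of 3.

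Different V segments were raised in different libraries. Trav7n-6 held 4.33% of the Trav counts of Atg5-deficient 4 (299 counts, 95% Wilson interval 3.88% to 4.84%), against a median of 0.312% in the other libraries, a ratio of 13.9. Trav7d-3 held 4.49% in Atg5-deficient 1 (271 counts, 4% to 5.05%), against 0.445%, a ratio of 10.1. Both belong to family 7, and the 3 and 2 bases that separate their ends from Trav7-6 and Trav7-3 are printed above.

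Trav6-2 held 2.81% in Atg5-deficient 3 (155 counts, 2.41% to 3.28%), against 0.439%. The same library held 7.47% on Trav14n-3, which lay between 1.68% and 2.84% in the other Atg5-deficient libraries and between 2.69% and 4.07% in the wild-type libraries. Trav1 held 2.59% in Atg5-deficient 5 (209 counts, 2.27% to 2.96%), against 0.471%. In the wild-type group the highest ratios were those of Trav2 in wild-type 1 (0.924%, 56 counts, ratio 5.17) and Trav10d in wild-type 4 (1.89%, 110 counts, ratio 4.28). These intervals cover counting error only.

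J segments varied less. In Atg5-deficient 1, where Trav7d-3 was raised, Traj39 was at 2.25% (180 counts) against a median of 0.819% elsewhere. In Atg5-deficient 4, where Trav7n-6 was raised, Traj23 was at 7.15% (725 counts) against 3.75%, and Atg5-deficient 5, where Trav1 was raised, held 3.79% on Traj37 (275 counts) against 1.64%. Traj23 was at 6.01% in Atg5-deficient 5 as well, and at 3.34% to 4.27% in the other 9 libraries. Counts per gene do not tell which V and J share a molecule, so pairing was not measured.

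**Figure D3:**
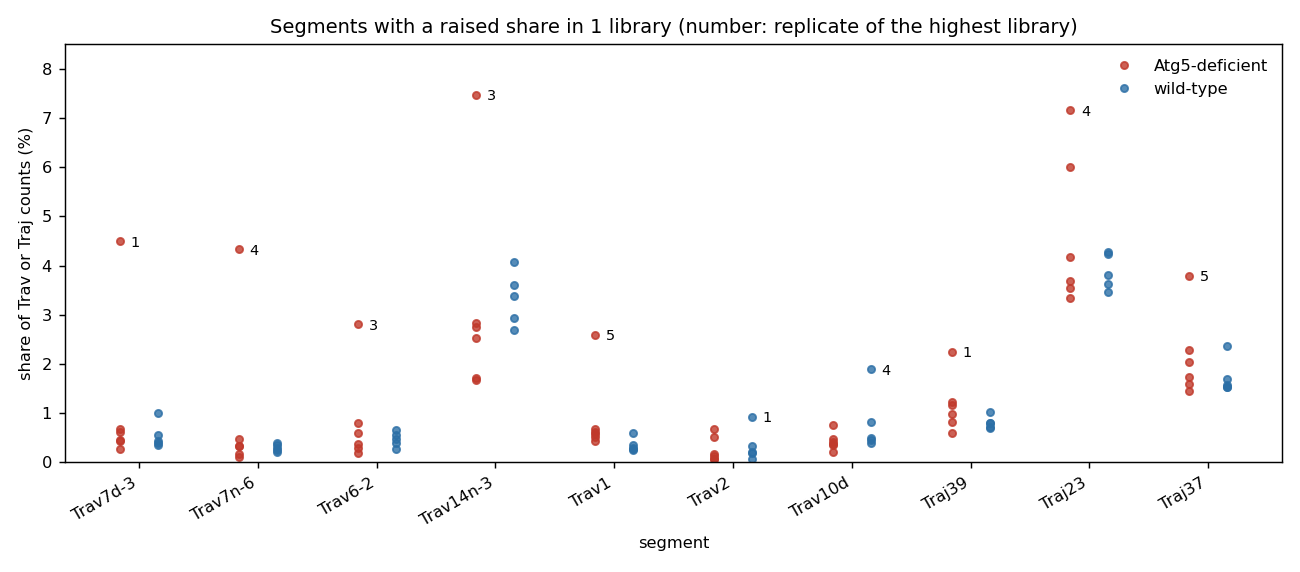
Share of Trav or Traj counts (y axis, %) of 10 segments (x axis) in each Atg5-deficient (red) and wild-type (blue) library; the number beside the highest point is its replicate. Trav7d-3, Trav7n-6, Trav6-2 and Trav1 each have 1 red point apart from all others, while Trav2 and Trav10d have 1 blue point above the rest.

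The number of V segments in even use was compared through the effective number, the exponential of the Shannon entropy of the shares, which equals the number of segments when all have the same share. For Trav it was 51.2 to 59.1 in the Atg5-deficient libraries (mean 54.6 ± 3.24, SD, n = 6), and 58.7, 61.2, 64.8, 57.5 and 58.7 in wild-type 1 to 5 (60.2 ± 2.94, n = 5). All but Atg5-deficient 2 lay below all wild-type libraries. The exact permutation p was 0.0195, and 0.104 after adjustment over the 12 single values compared between the groups, so the difference did not pass. It was -6.03 in the 8 adjoining libraries alone (exact permutation p = 0.0714, where 0.0179 is the smallest possible). For families the values were 12.9 and 13.3 (exact permutation p = 0.426). For Traj the effective number was 40.3 ± 2.04 against 40 ± 1.15 (exact permutation p = 0.805).

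Counts on the V part of the invariant natural killer T cell chain were few in both groups. Trav11 and Trav11d hold no unique stretch of 50 bases, so reads on them may have been split or dropped. Few counts here therefore do not show few cells. Trav11, Trav11d and Trav11n together held 0.133%, 0.256%, 0.0181%, 0.449%, 0.359% and 0.126% of Trav counts in Atg5-deficient 1 to 6, and 0.429%, 0.804%, 0.821%, 0.687% and 0.474% in wild-type 1 to 5. All but Atg5-deficient 4 lay below all wild-type libraries, and the 0.0181% of Atg5-deficient 3 is 1 count. The means were 0.224% ± 0.162 and 0.643% ± 0.183 (SD), with an exact permutation p = 0.00649 and 0.0779 after adjustment, so this did not pass either. The difference was -0.528 percentage points in the 8 adjoining libraries alone (exact permutation p = 0.0179, the smallest possible there). Trav11n, annotated as a pseudogene, gave 25 of the counts in Atg5-deficient 4 and 29 in wild-type 3. Without pseudogenes the difference was -0.304 points (exact permutation p = 0.00649, adjusted 0.0779).

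Traj18, the J part of that chain, was at 4.3%, 4.81%, 4.62%, 4.83%, 3.85% and 5.39% of Traj counts in Atg5-deficient 1 to 6, and at 5.43%, 5.21%, 4.97%, 5.33% and 5.89% in wild-type 1 to 5. All but Atg5-deficient 6 lay below all wild-type libraries (means 4.63% ± 0.525 and 5.36% ± 0.341, exact permutation p = 0.026, adjusted 0.104). The difference was -0.685 percentage points in the 8 adjoining libraries alone (exact permutation p = 0.0357). Across the 11 libraries the Trav11 family share and the Traj18 share gave Pearson's r = 0.34 (permutation p = 0.302, adjusted 0.544) and Spearman's rho = 0.39 (p = 0.238, adjusted 0.428), with r = 0.45 without the 2 libraries farthest from the median of Traj18. Within the 6 Atg5-deficient libraries the sign was the opposite (r = -0.23, exact permutation p = 0.674; rho = -0.09, p = 0.919). Zbtb16, the transcription factor that sets innate-like T cells apart, was at 0.944 to 7.32 CPM in the Atg5-deficient and 4.39 to 8.84 CPM in the wild-type libraries (log2 fold change -1.40, SE 0.45, edgeR adjusted p = 0.0758). Klrb1c, which encodes the receptor NK1.1, had a log2 fold change of -1.49 (SE 0.47, adjusted p = 0.0724). These 2 were picked for their known tie to such cells, and of the 15 genes tested in the same list of innate-like T cells 12 had values above 0 and the 3 that passed were higher in the Atg5-deficient libraries. The Trav11 family share and Zbtb16 gave r = 0.51 (permutation p = 0.108, adjusted 0.244) and rho = 0.50 (p = 0.121, adjusted 0.271), with r = 0.29 without the 2 libraries farthest from the median of Zbtb16. Within the Atg5-deficient libraries r was -0.63 (exact permutation p = 0.179).

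Trav1, the V part of the mucosal-associated invariant chain, was at 0.613%, 0.682%, 0.435%, 0.507%, 2.59% and 0.581% of Trav counts in Atg5-deficient 1 to 6, and at 0.264%, 0.597%, 0.248%, 0.344% and 0.296% in wild-type 1 to 5. The groups overlapped through wild-type 2, and Atg5-deficient 5 stood apart. The means were 0.902% ± 0.832 and 0.35% ± 0.143 (exact permutation p = 0.0455, adjusted 0.119), and without Atg5-deficient 5 the difference fell from 0.552 to 0.214 percentage points. In the 8 adjoining libraries alone it was 0.569 (exact permutation p = 0.393). Traj33, its J part, was at 0.475% to 1.63% (mean 1.09% ± 0.403) and 0.612% to 0.942% (0.82% ± 0.138), with an exact permutation p = 0.195 (adjusted 0.334). The library with the highest Traj33 share was Atg5-deficient 6, not the one with the highest Trav1 share, and the 2 shares gave r = 0.30 (permutation p = 0.366, adjusted 0.549) and rho = 0.20 (p = 0.558, adjusted 0.789).

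**Figure D4:**
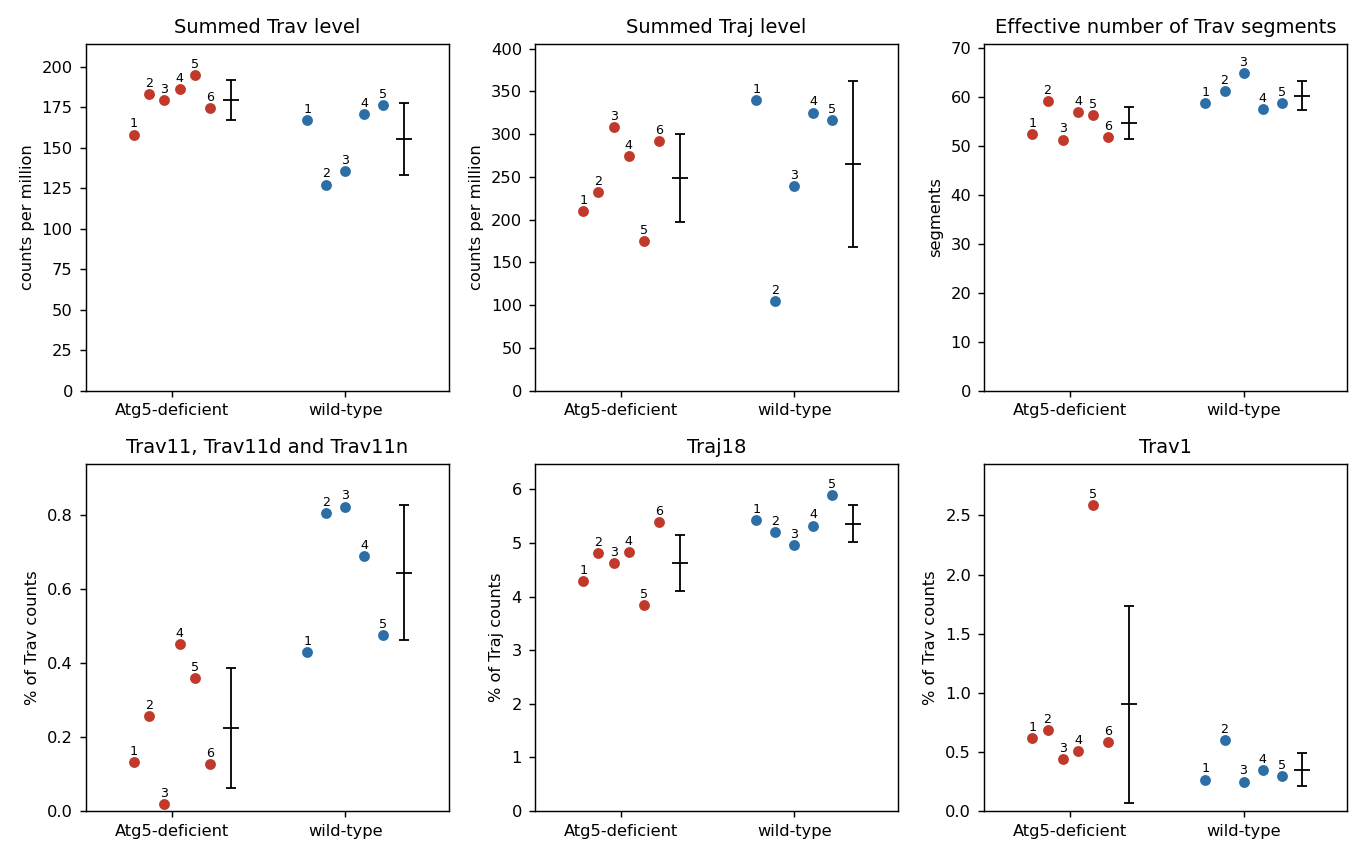
Points are libraries, with replicate numbers, in the Atg5-deficient (red, n = 6) and wild-type (blue, n = 5) groups, with mean and SD beside them; y axes give the summed Trav and Traj levels in CPM, the effective number of Trav segments, and shares of Trav or Traj counts in %. Most red points lie below the blue points for the Trav11 family, Traj18 and the effective number, with 1 red point in the blue range each, and Trav1 has 1 red point at 2.59%.

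Positions of the counted segments along the locus overlapped between the groups. The count-weighted mean distance of Trav segments from Trac was 784.5 kb ± 21.4 in the Atg5-deficient and 789.7 kb ± 13.8 in the wild-type libraries (exact permutation p = 0.706). For Traj segments it was 21.5 to 24.1 kb (mean 23.1 ± 0.932) and 22.4, 23.4, 21.8, 22 and 22.6 kb (22.4 ± 0.621), with an exact permutation p = 0.171 (adjusted 0.334).

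Summed over all segments, Trav was at 158.3, 183.2, 179.5, 186.5, 195 and 174.6 CPM in Atg5-deficient 1 to 6 and at 167, 127.4, 135.7, 170.8 and 176.3 CPM in wild-type 1 to 5. The groups overlapped, and 4 of 6 Atg5-deficient libraries lay above all wild-type libraries (exact permutation p = 0.0498, adjusted 0.119). In the 8 adjoining libraries alone the difference was 35.9 CPM (exact permutation p = 0.0357). Relative to the counts of Trac the difference changed sign (0.448 against 0.459 Trav counts per Trac count, exact permutation p = 0.688). Trac itself was at 403 ± 64.3 and 341 ± 24.2 CPM (log2 fold change 0.24, SE 0.11, edgeR adjusted p = 0.194). Summed Traj was at 175.3 to 308.6 CPM (mean 248.4 ± 51.5) and at 339.5, 105.1, 239.6, 325.1 and 316.1 CPM (265.1 ± 97.4), with an exact permutation p = 0.725. Wild-type 2 was lowest, and the difference was 16.6 CPM in the 8 adjoining libraries alone, against -16.6 CPM in all.

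V and J counts followed different transcripts across the libraries. Summed Trav followed Trac, the constant part of the same chain, with r = 0.85 (permutation p = 0.00101, adjusted 0.00303) and rho = 0.85 (p = 0.00189, adjusted 0.00567), and r = 0.80 without the 2 libraries farthest from the median of Trac. Summed Traj did not, with r = 0.12 (permutation p = 0.724, adjusted 0.814) and rho = 0.11 (p = 0.753, adjusted 0.847). Summed Traj followed Kcnq1ot1, a long RNA that stays in the nucleus, with r = 0.96 (permutation p = 1e-05, the smallest that 100000 permutations can give, adjusted 9e-05) and rho = 0.94 (p = 8e-05, adjusted 0.00045). Without the 2 libraries farthest from the median of Kcnq1ot1 r was 0.95, and within the 6 Atg5-deficient libraries 0.93 (exact permutation p = 0.0125). With Malat1, another nuclear RNA, r was 0.88 (permutation p = 0.00014, adjusted 0.00063) and rho 0.93 (p = 0.0001, adjusted 0.00045). For summed Trav and Kcnq1ot1 r was 0.26 (permutation p = 0.435, adjusted 0.559). No correlation was computed within the 5 wild-type libraries. In all 9 relations were computed, and they were chosen after the data were seen.

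The ratio of Traj to Trav counts was 1.32, 1.27, 1.72, 1.47, 0.899 and 1.67 in Atg5-deficient 1 to 6 and 2.03, 0.825, 1.77, 1.9 and 1.79 in wild-type 1 to 5. Wild-type 2 and Atg5-deficient 5 had the lowest ratios, and also the least Kcnq1ot1 (47.8 and 78.2 CPM, against 104 to 248 in the others). The part of nuclear or unspliced RNA in the Traj counts was not tested.

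**Figure D5:**
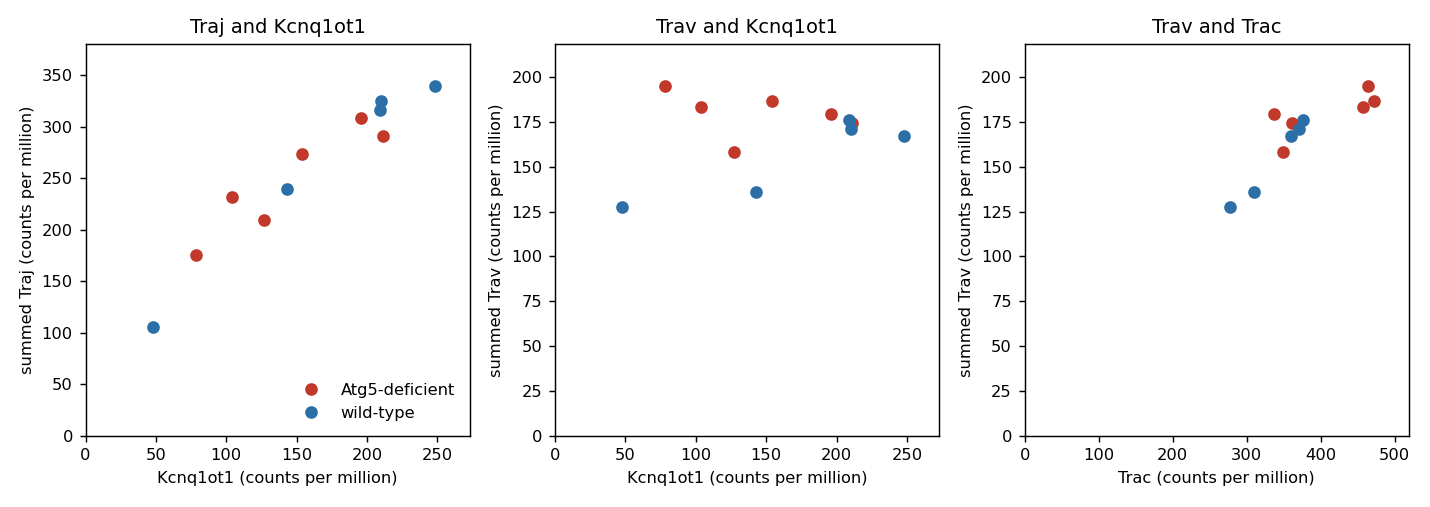
Each point is a library (red Atg5-deficient, blue wild-type), with summed Traj against Kcnq1ot1 at left, summed Trav against Kcnq1ot1 in the middle and summed Trav against Trac at right, all axes in CPM. Traj rises with Kcnq1ot1 (r = 0.96) and Trav with Trac (r = 0.85), while Trav shows no such course with Kcnq1ot1 (r = 0.26).

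Of 15 genes of the receptor, its signalling chains and its recombination, 12 were tested, 0 were higher and 1 was lower in the Atg5-deficient libraries (median log2 fold change -0.04), near the 6.84% called among all genes. That gene was Tcrg-C4, a constant gene of the gamma chain, at 0.367 to 1.38 CPM against 1.7 to 2.72 CPM (log2 fold change -1.51, SE 0.38, edgeR adjusted p = 0.0297). The CD3 genes and Cd247, which carry the signal of the receptor into the cell, had log2 fold changes of -0.04 to 0.18, and none passed. Of 16 genes of innate-like T cells and their ligands, 15 were tested, 3 were higher and 0 lower (median 0.27), beside 797 higher and 434 lower of all 17987 genes (6.84%). The 3 were Tbx21, a transcription factor of type 1 responses (1.15, SE 0.27, adjusted p = 0.0266), Slamf1, a surface receptor between lymphocytes (0.76, SE 0.14, 0.00936), and Il2rb, a receptor chain for IL-2 and IL-15 (0.69, SE 0.14, 0.0134). Cd1d1 and Mr1, which present ligands to the invariant cells, had values of -0.03 and 0.21 without passing. The summed markers of NK cells were at 11.2 to 92 CPM in the Atg5-deficient and 21.6 to 25.7 CPM in the wild-type libraries, and their part in the segment shares was not tested.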

How the data were processed

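RNA-seq libraries were grouped by the genotype in the labels, 6 Atg5-deficient and 5 wild-type. The deposited values are raw read counts by Ensembl gene ID. The submitters' processing notes name STAR, featureCounts and the build GRCm38. Not given in the sources used here are how reads that map to several copies were counted, whether by strand, and the tool versions and annotation release. Of 56748 IDs, 52073 (91.8%) matched GENCODE M21, which gave symbols, coordinates and sequences. The members and lists, and the tests, were chosen with earlier results of these data known. The receptor, innate-like and marker lists were part of that choice.

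All genes were fitted with edgeR 4.0.16 (TMM factors, filterByExpr with a minimum count of 10 and total of 15, robust quasi-likelihood F test, Benjamini-Hochberg, threshold 0.05) in R 4.3.3. DESeq2 1.42.0 and limma 3.58.1 (voom with sample quality weights) were alternatives. CPM of single genes are TMM-scaled, and summed CPM and the CPM in the relations use total counts, where 3 counts are 0.0631 to 0.0977 CPM. Shares and the 12 single values per library (SciPy 1.17.1) were compared by exact permutation over 462 splits, two-sided unless stated, with 0.00216 as the smallest p and adjustment over the 12. Segments named are the 12 largest shares of each class, called segments (up to 6 each way), segments whose shares do not overlap, the segment highest against the other libraries in each library, the 3 most counted pseudogenes of each class, and Trav11, Trav11d, Traj18, Trav1, Traj33 and Trac. Further segments (Trav11n, Traj5, Traj8, Trav4n-3, Trav7-6, Trav7-3) and the nuclear RNAs were chosen after their values were seen. On simulated counts for the same comparison (18325 genes, 200 changed), 84 were called with 4 false, and 2.99%, 26.9% and 90.9% of genes changed 1.5-fold, 2-fold and 4-fold were recovered. The simulation gave every gene the same spread between libraries, so these rates need not hold for segments with a wider spread. The table had 0 columns of other samples.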

Additional observations from a re-analysis of the deposited data

Results flagged for a closer look

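In 114 groups of 5 or 6 libraries (single values and named segments), 15 held a library far from the rest by Dixon's gap criterion, 9 of them Atg5-deficient and 6 wild-type, and 12 of them above the rest. Chance flags about 1 in 20 groups that are chosen without regard to their values. Here the named segments include, for each library, the segment highest against the other libraries. The number of flags therefore cannot be set against that rate. Shares of a class are also not independent of each other.

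Among Trav segments, Trav7d-3 was at 4.49% in Atg5-deficient 1 (others 0.273% to 0.689%), Trav7n-6 at 4.33% in Atg5-deficient 4 (0.116% to 0.483%), Trav6-2 at 2.81% in Atg5-deficient 3 (0.188% to 0.796%), Trav14n-3 at 7.47% in Atg5-deficient 3 (1.68% to 2.84%) and Trav1 at 2.59% in Atg5-deficient 5 (0.435% to 0.682%). Trav4-4-dv10 was at 5.54% in Atg5-deficient 1 (3.85% to 4.39%), and the pseudogene Trav11n at 0.362% in Atg5-deficient 4 (0% to 0.0995%). The mean distance of Trav segments from Trac was 743 kb in Atg5-deficient 6 (781 to 802 kb in the others of its group).

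Among wild-type libraries, Trav1 was at 0.597% in wild-type 2 (0.248% to 0.344%), Trav7-4 at 4.11% in wild-type 2 (5.93% to 6.58%) and the pseudogene Trav13-3 at 0.444% in wild-type 5 (0.132% to 0.201%). Traj57 was at 0.807% in wild-type 2 (0.235% to 0.306%), Traj37 at 2.37% in wild-type 2 (1.54% to 1.69%) and Traj4 at 2.18% in wild-type 3 (2.69% to 2.84%). Traj37 was also at 3.79% in Atg5-deficient 5 (1.46% to 2.28%). Of the 6 in the wild-type group, 4 fell on wild-type 2, the library with the fewest Trav and Traj counts.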

How the results depend on the processing

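The number of called segments, 1, was 0 with upper-quartile factors, with library sizes from summed Trav or summed Traj counts and in the 8 libraries with adjoining numbers, 2 with limma-voom, and 0 to 2 with each library left out in turn. Without a low-count filter 1 segment was called, Trav1 in place of Trav4-3. Trav4-3 kept its direction in each fit. The difference in summed Traj level turned from -16.6 CPM to 16.6 in those 8, and ran from -56.6 to 1.95 over the fits that left out 1 library (above 0 without wild-type 1). Summed Trav relative to Trac was -0.0106 against a main difference of 24.1 CPM. Over the same fits, the Trav mean position ran from -9.86 to 3.07 kb (above 0 without Atg5-deficient 6), the Traj effective number from -0.244 to 0.974 (below 0 without Atg5-deficient 2 or wild-type 3), the Trav profile distance from -0.018 to 0.00663 (above 0 without any 1 Atg5-deficient library) and the Traj profile distance from -0.005 to 0.00606 (above 0 without Atg5-deficient 1, 2, 3, 4 or 6). For the profile distances, the mean within the groups pools the pairs of both groups, and their weights change with the library left out. The cause of these changes of sign was not tested. The adjusted p of the Trav11 family share ran from 0.0571 to 0.171, and no single value passed under any of these fits. The Traj distance within Atg5-deficient minus within wild-type libraries ran from 0.0155 to 0.0406, with p = 0.00476 by exact permutation without wild-type 2. The Trav distance kept its side of 0.05 in each alternative run. Raised Trav segments differed by 3.4 a library at a limit of 2 times, by 1.47 at 3 times and by 0.567 at 4 times. No paired analysis was possible because the libraries' names carry no replicate numbers shared between the genotypes. Depth limits shares under 0.0835% and copies with few unique bases.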
